A study of Mus musculus with 3 samples.

Results

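The transcription factors of the TCF/LEF family and a set of genes that they control directly were followed in mouse embryoid bodies (EBs). The group was fixed by gene symbol and held 8 genes of the 55487 in the table: the 4 TCF/LEF genes Tcf7, Tcf7l1, Tcf7l2 and Lef1, and the 4 target genes Sp5, Sp8, Axin2 and Nkd1. All 8 passed the filter of at least 10 counts in at least 1 library, as did 17655 genes in total. The series consists of 3 RNA-seq libraries. EBs were made from the WT embryonic stem (ES) cell line E14K in hanging drops with bovine calf serum and without LIF, the cytokine that keeps ES cells undifferentiated. One library came from DMSO control EBs on day 3, another from DMSO control EBs on day 4, and the remaining one from day 4 EBs that had received 30 μM C2 ceramide, a short-chain and cell-permeable ceramide, from the start of day 3. The sample labels call the first pair of libraries controls, and the table headings name their treatment DMSO. Each condition was 1 library of 1 cell line, so no spread between cultures could be measured and no test was made. The libraries held 33619197, 35078820 and 35290094 counts in the order given, and this order is kept for all values below.

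Wnt ligands act through frizzled receptors and LRP co-receptors to stop the destruction of β-catenin, which then enters the nucleus and binds TCF/LEF factors on DNA. Without β-catenin these factors recruit TLE and other corepressors. Tcf7l1 acts mostly as a repressor in ES cells and holds back pluripotency genes, while Tcf7 and Lef1 act mostly as activators. Canonical Wnt signalling is required for the primitive streak, the site where mesoderm and endoderm arise. The 4 targets include feedback inhibitors of the pathway (Axin2 and Nkd1) and zinc finger factors of the Sp family (Sp5 and Sp8).

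Sp5 had the widest range of the 8 genes. Its level, in TPM (transcripts scaled to a common total, a level per length), was 4.29 on day 3 and 104.5 on day 4, against 12.2 in the ceramide library. The counts behind these levels were 221, 5511 and 645. Day 4 stood far above the other libraries, and the ceramide library was nearer to day 3 than to day 4 DMSO. Among the 14738 protein-coding genes that passed the filter, ranked from the highest TPM down, Sp5 moved from place 9068 on day 3 to place 1525 on day 4 and stood at place 6657 with C2 ceramide. Sp5 (ENSMUSG00000075304.2) lies on the plus strand at chr2:70474923-70477729 (GRCm38) and has a single annotated transcript.

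The 250 bases before the Sp5 start are shown because a match to the core letters bound by TCF/LEF factors lay in them. The window is chr2:70474673-70474922 on the plus strand of GRCm38.p6 as RefSeq gives it, and the capitals mark CTTTGAT, whose first base is 104 bases before the start site.
Sp5 promoter: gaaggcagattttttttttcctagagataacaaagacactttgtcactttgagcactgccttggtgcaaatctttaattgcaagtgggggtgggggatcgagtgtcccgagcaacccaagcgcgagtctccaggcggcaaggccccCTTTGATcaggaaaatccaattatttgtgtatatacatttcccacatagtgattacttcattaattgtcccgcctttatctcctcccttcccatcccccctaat

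CTTTGAT and CTTTGAA were searched on both strands in such windows for all 8 genes, which matched 15 RefSeq start sites. Sp5 and Sp8 each had 1 window with a match, so 2 of 15 windows and 2 of 8 genes held one. Over all RefSeq promoters of this length, 7.48% of 32851 windows and 8.63% of 27025 genes held a match. The Sp8 match was CTTTGAA on the minus strand, 51 bases before one of its 3 start sites. That start site lies inside the gene. The window before Sp8-201, the only Sp8 transcript with signal, held no match. The only Nkd1 window, chr8:88527383-88527632, also lies inside its gene. The bases before Nkd1-201, which starts at 88521354, were thus not searched. Both Tcf7 windows, chr11:52282596-52282845 and chr11:52283015-52283264 on the minus strand, lie inside their gene as well. The bases before the most upstream Tcf7 transcript, whose 5′ end is at 52283331, were not searched either. Lef1 and Tcf7l2 had windows inside the gene in addition to those before its start. A match is a description of the letters, and binding was not measured.

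**Figure D1:**
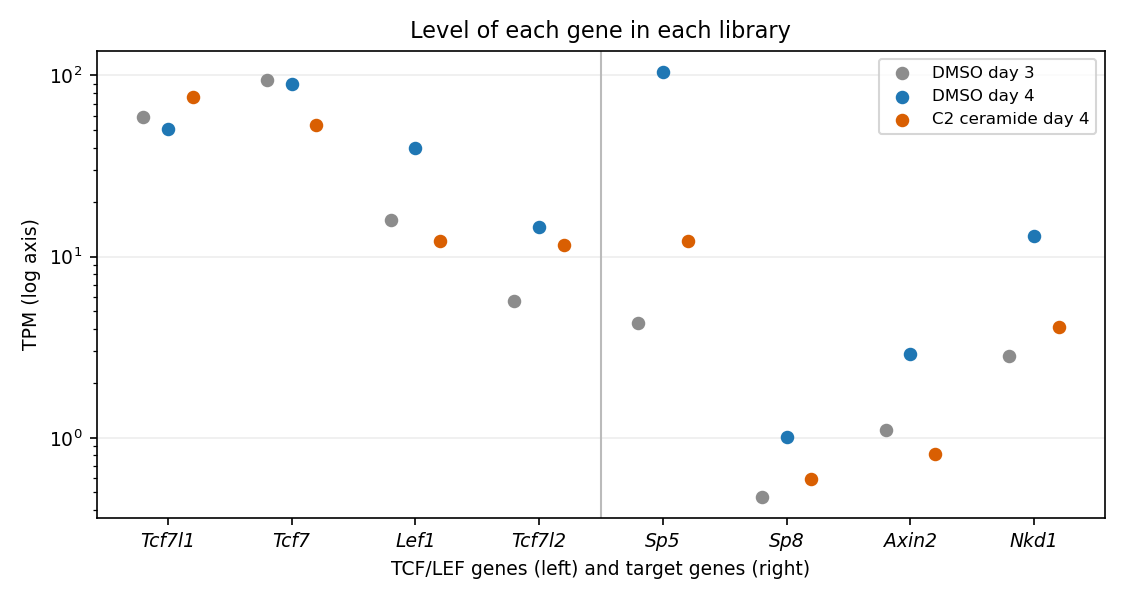
TPM of each gene in each library, on a log axis, with 1 point per library and no replicates. On day 4 Sp5 reached 104.5 TPM, above the 89.8 TPM of Tcf7, while its ceramide value of 12.2 TPM stood beside the 12.3 TPM of Lef1.

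Ratios of TPM are given as log2 values with an exact 95% interval of the count ratio, which covers counting error only. The words higher and lower are kept, as calls, for a TPM ratio past 2-fold. In bulk RNA, fewer cells of a type and less RNA per cell cannot be told apart.

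In DMSO on day 4 against day 3, 6 of the 8 genes were called higher and none lower, while 12.8% of all genes that passed the filter were called higher and 9.45% lower. Calls in either direction made up 22.3%. The median log2 ratio of the 8 genes was 1.34, and that of all such genes was 0.05. Sp5 was 24.4-fold higher, with a log2 ratio of 4.61 and an interval of 4.41 to 4.81. The other genes called higher were Nkd1, Axin2, Tcf7l2, Lef1 and Sp8. Tcf7 and Tcf7l1, the most abundant of the 8 genes on day 3, stayed within 2-fold.

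With C2 ceramide against DMSO on day 4, 4 of the 8 genes were called lower and none higher, beside 12.3% of all genes called lower and 9.97% called higher, or 22.3% in either direction. The genes called lower were Sp5, Axin2, Lef1 and Nkd1. The median log2 ratio was −1.23 over the 8 genes and −0.03 over all genes. The Sp5 level was 8.57-fold lower, with a log2 ratio of −3.10 (interval −3.22 to −2.98). Tcf7, Tcf7l2 and Sp8 had log2 ratios between −0.78 and −0.33, and Tcf7l1 alone of the 8 genes had a positive one. The day 4 DMSO library is the numerator of the first comparison and the denominator of this one, so a high or low value in that library enters both with opposite sign.

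Against DMSO on day 3, the ceramide library had 2 of the 8 genes called higher and none called lower, where 11.2% of all genes were called higher and 9.39% lower. In either direction 20.6% of all genes were called. The pair called here was Sp5, with a log2 ratio of 1.51 (interval 1.28 to 1.73), and Tcf7l2, with a log2 ratio of 1.02 (interval 0.84 to 1.20). The Tcf7l2 interval reached to both sides of the 2-fold threshold. The other 6 genes lay within 2-fold of day 3, and the Sp8 interval, −0.23 to 0.87, included no difference. Lef1, Axin2 and Tcf7 had log2 ratios of −0.38, −0.44 and −0.82.

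**Figure D2:**
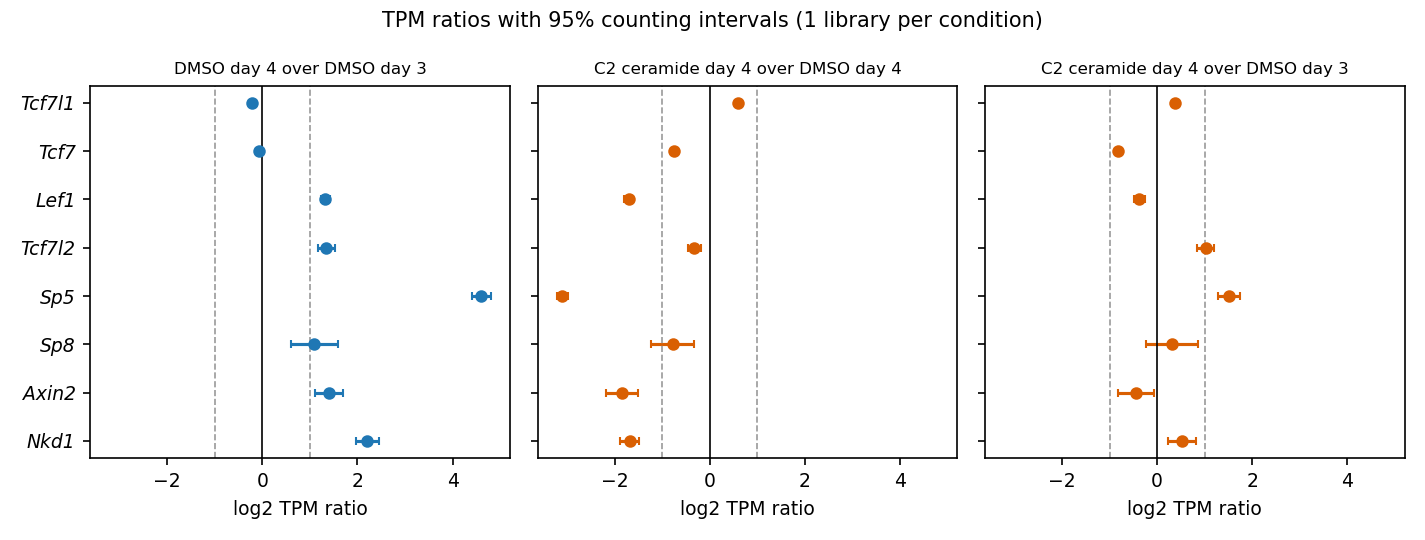
Log2 TPM ratio of each gene in the 3 comparisons (points) with its 95% counting interval (bars), where dashed lines mark 2-fold and colours mark the numerator library. In the ceramide comparison on day 4, Sp5 lies at −3.10 and Tcf7l1 at 0.59, at opposite ends of the 8 genes.

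In all, 4 of the 8 genes, Sp5, Lef1, Axin2 and Nkd1, were both called higher on day 4 and called lower with C2 ceramide. Over all genes that passed the filter, 1174 of 17655, or 6.65%, had this pattern. These comparisons share the day 4 DMSO library.

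The feedback genes were less abundant than any TCF/LEF gene in each library. Nkd1, which encodes an inhibitor that binds Dishevelled, had 2.82, 13.0 and 4.07 TPM from 165, 906 and 257 counts. It was high on day 4, and the ceramide level was closer to day 3. Its log2 ratio was 2.21 (1.97 to 2.45) for day 4 over day 3 and −1.68 (−1.88 to −1.48) for C2 ceramide over DMSO. Nkd1 (ENSMUSG00000031661.12) lies on the plus strand at chr8:88521354-88594884, and 2 of its 3 transcripts, Nkd1-201 and Nkd1-203, had signal in all libraries. Nkd1-201 was at 1.27, 7.19 and 2.03 TPM and Nkd1-203 at 1.56, 5.15 and 2.03 TPM, so both were highest on day 4.

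Axin2 encodes a scaffold of the complex that marks β-catenin for destruction and is widely read as a Wnt reporter gene. Its level was 1.11, 2.92 and 0.813 TPM from 139, 299 and 98 counts. The ceramide library held the lowest of the 3 values. The log2 TPM ratio was 1.40 (1.10 to 1.70) for day 4 over day 3 and −1.84 (−2.19 to −1.51) for C2 ceramide over DMSO. Taken as counts over the library total, without length, the first of these was 1.04, just past 2-fold. The full-length transcript Axin2-201 alone was at 1.11, 2.24 and 0.745 TPM, and 2 short transcripts added 0.653 TPM on day 4 from 9.01 estimated counts. Axin2 (ENSMUSG00000000142.15) lies on the plus strand at chr11:108920349-108950783.

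Sp8, a relative of Sp5, was the least abundant of the 8 genes, at 0.474, 1.01 and 0.590 TPM from 52, 114 and 66 counts. The day 4 level was highest, with the other libraries close to each other. Its day 4 over day 3 log2 ratio was 1.10 with a wide interval, 0.61 to 1.60, so that at this depth a ratio below 2-fold was within counting error. With C2 ceramide the log2 ratio was −0.78 (−1.24 to −0.33). Sp8 (ENSMUSG00000048562.7) lies on the plus strand at chr12:118846329-118852576. The level of Sp5 over that of Sp8, both in TPM, was 9.05, 103.1 and 20.7.

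Within the TCF/LEF family each gene had its own order of levels over the libraries. Lef1 was at 15.9, 40.0 and 12.3 TPM, from 1400, 3653 and 1147 counts. It was high in the day 4 DMSO library only, and the ceramide value was the lowest. The log2 ratio was 1.33 (1.24 to 1.42) for day 4 over day 3 and −1.71 (−1.80 to −1.61), or 3.26-fold lower, for C2 ceramide over DMSO.

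Tcf7l2 was at 5.73, 14.5 and 11.6 TPM, from 364, 1077 and 767 counts. Both day 4 libraries were above day 3 whether or not C2 ceramide was present, unlike Lef1, whose ceramide level was below day 3. The log2 ratio was 1.35 (1.17 to 1.52) for day 4 over day 3 and −0.33 (−0.46 to −0.19) for C2 ceramide over DMSO. Taken as counts over the library total, without length, the second of these was −0.50, outside its interval. The intervals of the Lef1 and Tcf7l2 ratios overlapped in the first comparison and lay apart in the second, as far as counting error goes.

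Tcf7, also known as TCF1, was the most abundant of the 4 factors on day 3 and on day 4 in DMSO. Its level was 94.2, 89.8 and 53.5 TPM, from 5951, 5765 and 3466 counts, so the control libraries were close and the ceramide library was low. The log2 ratio was −0.07 (−0.12 to −0.02) for day 4 over day 3 and −0.75 (−0.81 to −0.69) for C2 ceramide over DMSO. Tcf7l1, also known as TCF3, went the other way with C2 ceramide. Its level was 58.7, 50.8 and 76.4 TPM, from 3919, 3438 and 5045 counts, and the ceramide library held the highest value. The log2 ratio was −0.21 (−0.28 to −0.14) for day 4 over day 3 and 0.59 (0.53 to 0.65), a ratio of 1.50, for C2 ceramide over DMSO. Neither gene passed 2-fold in any comparison.

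The summed level of the 4 factors was 174.6, 195.1 and 153.8 TPM. Its highest value was 1.27 times its lowest, beside 3.26 times for Lef1 and 2.54 times for Tcf7l2. Tcf7 held 54.0%, 46.0% and 34.8% of it. Tcf7l1 held 33.6%, 26.1% and 49.7%, and was thus the most abundant factor with C2 ceramide, whereas Tcf7 was the most abundant in both DMSO libraries. Lef1 held 9.11%, 20.5% and 7.97%, and Tcf7l2 held 3.28%, 7.46% and 7.55%.

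Tcf7 and Lef1 together were at 1.88 times the Tcf7l1 level on day 3, at 2.55 times on day 4 and at 0.860 times with C2 ceramide. The quotient of Lef1 to Tcf7l1 was 0.271, 0.786 and 0.160. Tcf7l1 (ENSMUSG00000055799.13) is on the minus strand at chr6:72626378-72789254 and Tcf7 (ENSMUSG00000000782.16) on the minus strand at chr11:52252371-52283331. Lef1 (ENSMUSG00000027985.14) is on the plus strand at chr3:131110471-131224356, and Tcf7l2 (ENSMUSG00000024985.20) on the plus strand at chr19:55741820-55933654.

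**Figure D3:**
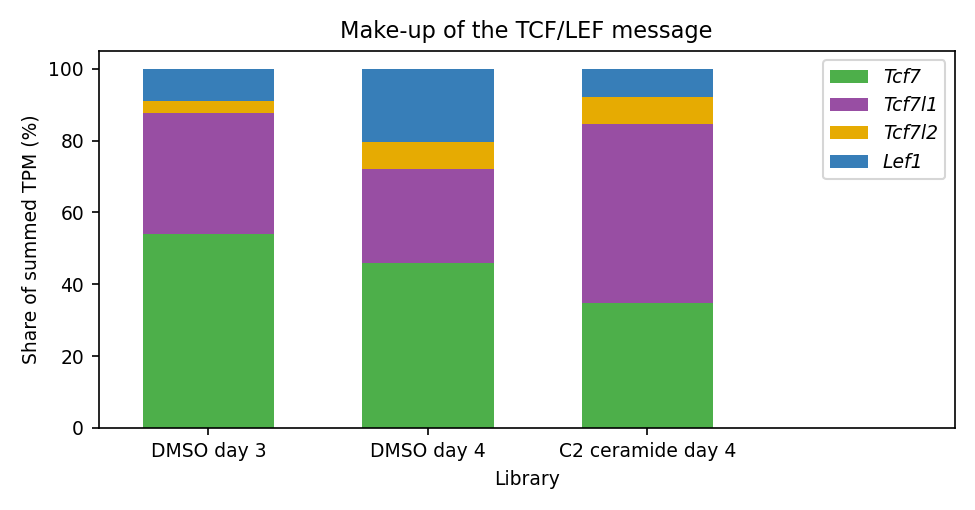
Share of each TCF/LEF gene in the summed TPM of the 4 genes (percent, stacked to 100), 1 bar per library. The Tcf7l1 band is widest with C2 ceramide, at 49.7%, and the Lef1 band is widest in DMSO on day 4, at 20.5%.

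Transcripts of the TCF/LEF genes can differ in parts that decide how the protein binds its partners, so the transcript table was read for each. Its values are estimates from reads that transcripts share, and carry no counting interval. A pair of Lef1 transcripts made up most of the gene. Lef1-202 was at 8.14, 22.3 and 4.84 TPM, and Lef1-204 at 6.28, 15.2 and 6.94 TPM. Lef1-202 was the more abundant in both DMSO libraries, and Lef1-204 was the more abundant with C2 ceramide. The share of Lef1-202 in the gene was 51.1%, 55.8% and 39.5%, and that of Lef1-204 was 39.4%, 38.0% and 56.6%. For C2 ceramide over DMSO on day 4 the log2 ratio was −2.20 for Lef1-202 and −1.13 for Lef1-204.

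The models of these transcripts have the same ends and differ by 1 exon of 41 bases, chr3:131204933-131204973 (plus strand, GRCm38, GENCODE M21), which Lef1-202 includes and Lef1-204 skips. In Lef1-202 the coding sequence stops inside this exon, after the 32 coding bases shown, and the last exon is untranslated. In Lef1-204 the coding sequence runs 77 bases into the last exon. The short exon is shown because it is what separates the estimates.
Lef1 penultimate exon, coding part: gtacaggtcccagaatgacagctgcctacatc

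The summed TPM of coding transcripts that include this exon, over the TPM of Lef1-204, which skips it, gave quotients of 1.44 on day 3, 1.57 on day 4 and 0.746 with C2 ceramide. The first coding exon of Lef1 encodes the β-catenin binding domain. It lies at chr3:131111472-131111678, and the capitals mark the start codon.
Lef1 first coding exon: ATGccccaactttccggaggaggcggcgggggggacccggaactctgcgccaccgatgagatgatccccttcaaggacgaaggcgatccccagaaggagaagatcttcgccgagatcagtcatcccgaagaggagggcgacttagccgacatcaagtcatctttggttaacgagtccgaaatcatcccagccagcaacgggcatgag

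Transcripts with this exon held 90.6%, 93.8% and 98.8% of the Lef1 TPM. Lef1-203, which starts 2326 bases downstream and has in its place a coding start of 9 bases, was at 0.880, 1.57 and 0 TPM from 50.5, 92.3 and 0 estimated counts. It was a minor part of the gene in every library and was listed at 0 with C2 ceramide. A cassette exon of 84 coding bases at chr3:131191023-131191106 was present in Lef1-201 and Lef1-203 and absent from the main transcripts, and its carriers held between 2.73% and 5.53% of the gene. It is shown as the part that most Lef1 message left out.
Lef1 cassette exon: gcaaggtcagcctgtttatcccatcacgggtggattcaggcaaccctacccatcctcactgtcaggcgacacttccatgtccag

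An antisense gene, Lef1os1, overlaps the 5′ end of Lef1 and had 96, 261 and 116 counts. The library kit does not keep the strand, so reads in the overlap cannot be assigned to one gene or the other. Gm42449 overlaps Lef1 on the same strand and had 10 counts or fewer in each library.

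Tcf7l1 was split almost evenly between a pair of coding transcripts. Tcf7l1-201 was at 29.2, 25.0 and 33.9 TPM, and Tcf7l1-202 at 29.4, 24.9 and 40.7 TPM. Both were highest with C2 ceramide, where the log2 ratio to DMSO on day 4 was 0.44 for Tcf7l1-201 and 0.71 for Tcf7l1-202. The quotient of Tcf7l1-202 to Tcf7l1-201 was 1.01, 0.996 and 1.20. Tcf7l1-202, whose model is shorter at both ends, has an additional exon of 42 coding bases at chr6:72648801-72648842 on the minus strand, shown here in the direction of the transcript. Genes that overlap Tcf7l1 had 8 counts or fewer in each library.
Tcf7l1 cassette exon: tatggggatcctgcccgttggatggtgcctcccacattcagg

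Tcf7 also had a pair of main transcripts, and their 5′ ends lay 760 bases apart. Tcf7-201, with the downstream start, was at 64.5, 59.4 and 34.1 TPM. The transcript with the upstream start was at 29.6, 29.8 and 19.3 TPM. Both were lowest with C2 ceramide, and the share of the upstream transcript was 31.4%, 33.2% and 36.0%. The Tcf7 family is known for long forms that bind β-catenin and short forms that do not. The annotation used here gives another version of the upstream transcript, so its coding start was not determined. The antisense gene A630014C17Rik overlaps Tcf7 and had 5, 7 and 13 counts.

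Tcf7l2 was spread over 22 annotated transcripts, of which 14 had signal in at least 1 library. Protein-coding transcripts summed to 3.98, 12.6 and 8.50 TPM, or 69.5%, 86.4% and 73.2% of the gene. Non-coding ones, mainly with retained introns, summed to 1.74, 1.98 and 3.11 TPM and were highest with C2 ceramide. Tcf7l2-209, the most abundant, was at 0.951, 3.51 and 2.40 TPM, and Tcf7l2-202 at 0.993, 2.66 and 1.87 TPM. Both lay between the DMSO values with C2 ceramide. Tcf7l2-222 was at 0.796, 1.95 and 1.01 TPM, and Tcf7l2-212 at 0.581, 1.58 and 0.714 TPM. These were closer to day 3 with C2 ceramide. Tcf7l2-210 was at 0.121, 1.40 and 1.37 TPM and was thus nearly as high with C2 ceramide as in DMSO on day 4. Tcf7l2-206 and Tcf7l2-204, both with retained introns, were at 1.29, 0.767 and 1.55 TPM and at 0, 0.417 and 1.51 TPM. They were highest with C2 ceramide, on no more than 40.3 estimated counts each.

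**Figure D4:**
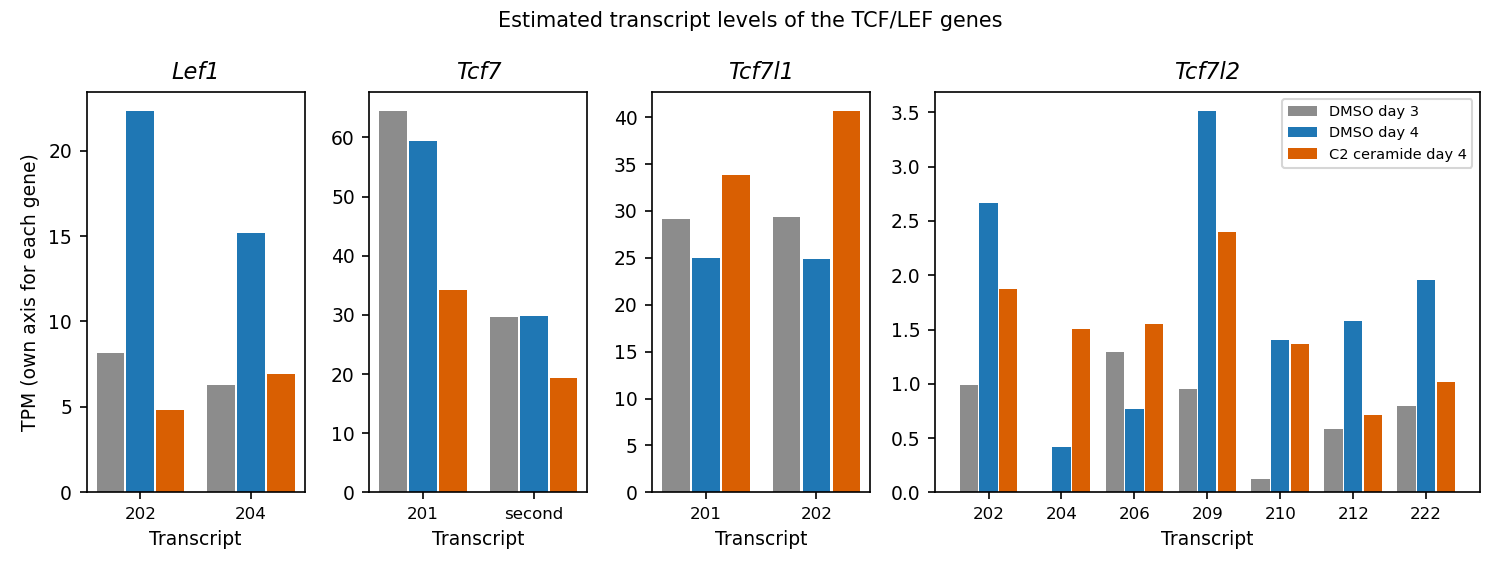
Estimated TPM of the main transcripts of each TCF/LEF gene, with 1 bar per library and its own axis for each gene, where numbers are the GENCODE transcript suffixes and "second" is the Tcf7 transcript with the upstream start. With C2 ceramide Lef1-204, at 6.94 TPM, stands above Lef1-202, at 4.84 TPM, the reverse of both DMSO libraries.

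The rest of the pathway was described with lists of its parts. The gene for β-catenin itself, Ctnnb1, was abundant and nearly level, at 425.6, 436.7 and 492.5 TPM. None of the 16 genes of β-catenin and its destruction complex was called in any comparison by TPM. Over all genes, 22.3%, 22.3% and 20.6% were called in either direction in the 3 comparisons. The median log2 ratio of the 16 genes for C2 ceramide over DMSO on day 4 was −0.31. Their ratios ran from −0.76 for Amer1 and −0.66 for Apc2, which belong to the complex or bind it, to 0.15 for the kinase gene Csnk1a1 and 0.17 for Ctnnb1. By counts without length, Apc2 was just past 2-fold lower with C2 ceramide than on day 3, from 43 and 82 counts. The ligand gene Wnt3, which is needed for the streak, was at 4.34, 18.4 and 3.96 TPM and thus had the order of Lef1.

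Of 15 Wnt receptor genes, 4 were called lower with C2 ceramide on day 4, namely Fzd1, Fzd3, Fzd8 and Ror2, and none was called higher, beside 12.3% and 9.97% of all genes. By counts without length 3 were called lower, since Fzd3 had a log2 count ratio of −0.60 and a log2 TPM ratio of −1.49. Their median log2 ratio was −0.54. The lowest was Fzd1 at −1.81, from 0.782, 4.58 and 1.31 TPM, followed by Fzd8 at −1.67. Fzd5 at 0.98 and Fzd2 at 0.24 were the highest. For day 4 over day 3 in DMSO, 4 receptor genes were called higher, Fzd1, Fzd3, Fzd8 and Fzd10, and Fzd4 and Fzd9 were called lower, beside 12.8% and 9.45% of all genes. By counts without length Fzd3 was within 2-fold here too, at 0.88.

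Among 9 coactivators that bind β-catenin or read its complex, Tbl1xr1 was called higher with C2 ceramide on day 4 and Pygo1 lower. Their log2 TPM ratios were 1.42 and −1.25. Over all genes, 9.97% were called higher and 12.3% lower in this comparison. The Tbl1xr1 call was lost when counts were compared without length: its counts were 739 and 1200, a log2 ratio of 0.69, while its TPM were 5.59 and 14.9. The Pygo1 call was lost with 0.1 TPM added, on 92 and 39 counts. Pygo2 and Bcl9l had log2 ratios of −0.34 and 0.76. Among 11 corepressor genes only Tle2 was called, at 1.25 TPM in DMSO and 0.331 TPM with C2 ceramide, on 32 and 14 counts. Ctbp2 and Tle4 had log2 ratios of 0.71 and 0.53, and the β-catenin inhibitor gene Ctnnbip1 and Tle6 had −0.65 and −0.61. By counts without length Tle6 was also called lower, at −1.35. The median was −0.05 over the corepressors and −0.19 over the coactivators.

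Other known Wnt targets were called in both directions. Of 17, 9 were called higher on day 4 in DMSO and none lower, beside 12.8% and 9.45% of all genes. Their median log2 ratio was 1.10. With C2 ceramide 9 were called lower on day 4, beside 12.3% of all genes: T, Cdx1, Cdx2, Tbx6, Msgn1, Mixl1, Lgr5, Dkk1 and Nkd2. T and Mixl1 also count among the primitive streak markers below. Notum and Rnf43, both inhibitors of the pathway that act at the cell surface, were called higher, beside 9.97% of all genes. Their log2 ratios were 1.44 and 1.18. With 1 TPM added to every value neither stayed past 2-fold. The median over the 17 genes was −1.06, and setting Lgr5 at 3 counts in the ceramide library left it at that value. Dkk1 was at 0.170, 30.9 and 0.708 TPM, and T, the streak gene Brachyury, at 3.39, 109.8 and 9.47 TPM. Lgr5 had 20, 1029 and 0 counts. Myc and Ccnd1, targets in many tissues, had log2 ratios of −0.27 and −0.08 for C2 ceramide over DMSO. Against day 3, 7 of the 17 genes were called higher with C2 ceramide and 2 lower, beside 11.2% and 9.39% of all genes. With 1 TPM added these counts were 4 and 0.

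The 4 listed genes known to be repressed by Tcf7l1 in ES cells were read beside it. Of these, 3, namely Klf2, Esrrb and Tfcp2l1, were called higher with C2 ceramide on day 4, beside 9.97% of all genes. Their log2 ratios were 1.45, 1.37 and 1.01. Klf2 was at 72.2, 47.9 and 130.8 TPM. Nanog, at 87.9, 78.9 and 105.9 TPM, had a log2 ratio of 0.42. All 4 had their highest value in the ceramide library, where Tcf7l1 was also highest. Esrrb and Tfcp2l1 also count among the naive ES cell markers below.

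None of the other Sp factors with 50 counts or more in a library was called. Sp1, Sp2, Sp3, Sp4 and Sp6 had log2 ratios between −0.82 and 0.66 from day 3 to day 4 and between −0.59 and 0.41 for C2 ceramide over DMSO. Sp7, which was below that minimum, had 0, 0 and 24 counts. It was called higher with C2 ceramide against both DMSO libraries, beside 9.97% of all genes on day 4 and 11.2% against day 3. Sp9 did not pass the filter on counts.

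**Figure D5:**
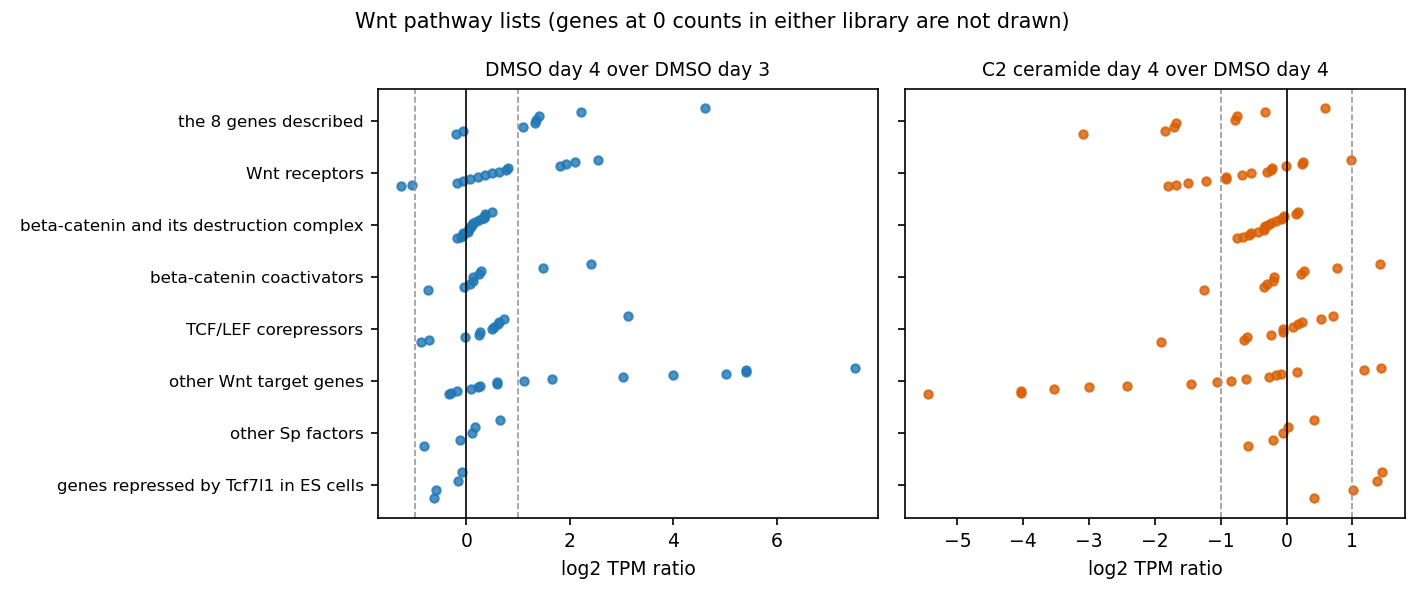
Log2 TPM ratio of each gene (points) in the pathway lists and in the 8 genes, for day 4 over day 3 in DMSO and for C2 ceramide over DMSO on day 4, where dashed lines mark 2-fold and genes with 0 counts in either library are left out. The genes of β-catenin and its destruction complex all lie between −0.76 and 0.49, while the other Wnt targets spread from −5.45 to 7.51.

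Markers of cell types differed in level between the libraries, and the make-up of the EBs was not measured. The summed level of 5 primitive streak markers (T, Eomes, Mixl1, Mesp1 and Gsc) was 35.5, 478.1 and 29.5 TPM. All 5 were called higher on day 4 in DMSO, beside 12.8% of all genes. With C2 ceramide against DMSO on day 4 all 5 were called lower, beside 12.3% of all genes. Eomes alone made up 25.2 TPM of the day 3 sum. Against day 3, the ceramide library had T, Mixl1 and Mesp1 called higher and Eomes lower, with Mesp1 on 1 and 15 counts. Over all genes, 11.2% were called higher and 9.39% lower in this comparison. Like Sp5, Lef1, Axin2 and Nkd1, the 5 markers were highest in DMSO on day 4, and their part in those ratios was not tested. All 4 naive ES cell markers were called higher with C2 ceramide on day 4, beside 9.97% of all genes. They summed to 135.1, 90.6 and 283.6 TPM. This is the order of Tcf7l1, and their part in its ratio was not tested either. The 4 epiblast markers summed to 2022, 1409 and 1463 TPM and were all present in every library, as were the naive markers. The epiblast markers did not move together. On day 4 Fgf5 was called lower with C2 ceramide, at 253.1 TPM in DMSO and 86.6 TPM with C2 ceramide. Pou5f1, Otx2 and Dnmt3b had log2 ratios of 0.54, −0.53 and −0.07. Against day 3, Fgf5 and Dnmt3b were called lower with C2 ceramide.

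Markers of other cell types were low. The 4 neuroectoderm markers summed to 1.88, 0.702 and 2.24 TPM. Sox1, Pax6 and Neurod1, the 3 that passed the filter, were called higher with C2 ceramide on day 4, beside 9.97% of all genes. Of these, only Sox1 was also called higher than on day 3. Pax6 and Neurod1 had log2 ratios of 0.32 and −0.37 to day 3, within 2-fold. The counts were 43, 23 and 66 for Pax6 and 64, 14 and 50 for Neurod1. Sox1 had 0, 0 and 66 counts, and Zic1 was listed at 0 with C2 ceramide. The part of the neuroectoderm markers in the Tcf7l1 ratio was not tested. The 4 visceral endoderm markers summed to 1.53, 3.30 and 2.26 TPM with none at 0. Ttr and Apoa1 were called lower with C2 ceramide on day 4, from 10 and 16 counts to 5 and 4, beside 12.3% of all genes. The 3 trophoblast markers summed to 4.96, 2.24 and 1.40 TPM, with Elf5 at 0 on day 3 and Prl3d1 in both day 4 libraries.

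The protein-coding genes with patterns most like each of the 8 genes were found by the distance between their pairs of log2 TPM ratios, day 4 over day 3 and C2 ceramide over DMSO, over the 3 libraries. Genes with fewer than 50 counts in any of the libraries were set aside, which left 11335 candidates. Sp5 had Cdh2, the N-cadherin gene, as its nearest gene, at a distance of 0.18, and Cdh2 was at 2.67, 73.7 and 8.44 TPM. The next was Alox15, at 2.02, 43.1 and 5.25 TPM. Nkd1 was nearest to the receptor gene Fzd8, at 2.34, 10.0 and 3.14 TPM, and to Gpm6b, at 2.09, 9.92 and 2.77 TPM. The distances of the remaining genes to their nearest were smaller than that of Sp5.

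Lef1 was nearest to Dnaaf3 and Atp8a1, and Axin2 to Gria3 and 2410004P03Rik. Tcf7l2 was nearest to Bmp1, at 5.59, 14.3 and 11.5 TPM, and to Ano10. Sp8 was nearest to Sall1, at 8.48, 18.5 and 10.9 TPM, and to Aebp1. Tcf7 was nearest to the glycolysis gene Tpi1, at 1343, 1260 and 744.6 TPM, and to Rem2. Tcf7l1 was nearest to Madd, at 2.92, 2.52 and 3.79 TPM, and to Dlg1. These lists follow from 2 numbers per gene and rest on 1 library per condition.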

How the data were processed

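Total RNA of EBs was converted to cDNA with the SMART-Seq v4 kit, which does not keep the strand, and sequenced as 1 library per condition. The submitters' processing notes name DRAGEN, and the authors deposited, per gene and per transcript of GENCODE M25 (GRCm38), TPM values and estimated counts. Per the file headers, each library has its own columns. Here, ratios of TPM were formed with values of 0 set to 0.001, and a ratio above 2 or below 0.5 was called, after the study's own thresholds. A gene entered when any library held 10 or more of its counts. Intervals were exact Clopper-Pearson limits at 95% of the count ratio, shifted to the TPM ratio. Total counts of 33619197 to 35290094 per library set this precision, and both the intervals and the totals cover counting error only. Ratio and interval code was checked on simulated counts. The 8 genes and all lists were chosen with earlier results of these data known. From each list, the genes named were the 2 with the highest and the 2 with the lowest log2 ratio of C2 ceramide over DMSO among those with 50 counts in a library, the genes called, and genes of context. Beside each of the 8 genes, the 2 nearest in pattern were named, and for each gene the 2 main transcripts and those above 10% of it. Myc, Ccnd1 and Sp6 were named after their values were seen. Sequences came from GENCODE M21 (exons) and RefSeq GRCm38.p6 (promoters). Counts were scaled as alternatives with edgeR 4.0.16 (TMM) and DESeq2 1.42.0 (size factors) in R 4.3.3 after rounding, and no count model was fitted. Python 3.11.15 with pandas 2.3.3 and SciPy 1.17.1 was used.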

Additional observations from a re-analysis of the deposited data

How the results depend on the processing

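No paired analysis was possible because each condition was 1 library. For the same reason no spread between cultures stands behind any ratio, and no replicate could be left out. The ratios of the 8 genes were recalculated, 144 in all. These used pseudocounts of 0.1 and 1 TPM, counts over the library total, TMM, DESeq2 size factors and coding transcripts alone. The sign was the same in 144, but 21 of the 144 values fell outside the counting interval of the main ratio. The intervals thus do not cover the choice of processing. Tcf7l2 was no longer called higher with C2 ceramide than on day 3 under a pseudocount of 1 TPM, TMM or DESeq2 size factors, which left 1 gene called, Sp5, instead of 2. A threshold of 1.5-fold gave 7 genes called for C2 ceramide over DMSO on day 4 (1 higher, Tcf7l1, and 6 lower) instead of 4. At 4-fold, 2 genes were called for day 4 over day 3 (Sp5 and Nkd1), 1 for C2 ceramide over DMSO on day 4 (Sp5) and 0 for C2 ceramide over DMSO on day 3. Sp8 lost its day 4 call with 0.1 TPM added, and Axin2 and Sp8 with 1 TPM added. The other alternatives, among them filters on low counts and protein-coding genes alone, kept the counts of the 8 genes within 1.5 times. The counts over the pathway lists were less stable, with 42 of 168 outside 1.5 times. For C2 ceramide over DMSO on day 4, counts without length, TMM and DESeq2 size factors gave 0 instead of 1 coactivator higher (Tbl1xr1 lost) and 2 instead of 1 corepressor lower. A minimum of 50 counts or 1 TPM added gave 0 corepressors, and 1 TPM added gave 0 instead of 2 other targets higher and 8 instead of 9 lower. The same scalings called 1 gene of the destruction complex lower for C2 ceramide over DMSO on day 3 (Apc2), and 1 of the genes repressed by Tcf7l1 lower for day 4 over day 3 (Esrrb). With CTTTGAT alone as the motif, 1 of the 8 genes, Sp5, held a match, beside 3.72% of all genes and 3.21% of all windows. The shares of the TCF/LEF genes were recalculated from counts without length and from coding transcripts alone, and 12 of 24 values moved past counting error. Without length correction Lef1 held 12.0%, 26.2% and 11.0% of the TCF/LEF counts, and Tcf7l1 was still the largest with C2 ceramide at 48.4%. Depth limited Sp8 and Axin2 most, with as few as 52 and 98 counts.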
